A study of Mus musculus with 4 samples.

Results

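The genes described here take part in the signal of transforming growth factor beta (TGF-beta), from its anchor on the cell surface to the nucleus, in mouse regulatory T cells. They are 10 genes chosen by symbol from the annotation of the array: the anchor Lrrc32, the cytokine Tgfb1, the activating integrin chain Itgb8, the receptors Tgfbr1 and Tgfbr2, the SMAD genes Smad2, Smad3 and Smad7, and the corepressors Ski and Skil. Each had exactly 1 transcript cluster, the unit the array measures, so 10 of the 65528 clusters and 10 of the 29860 named genes are members, and 0 of their clusters were shared with another gene.

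Regulatory T cells were obtained from spleen at an age of 7 to 8 weeks, as CD4 cells sorted for a green fluorescent protein. Control mice, labelled WT, carried the transgene B6-Tg(Foxp3EGFP-cre)1cJbs/J, which makes the fluorescent protein and Cre recombinase in Foxp3-expressing cells, on a C57BL/6 background. The mice labelled KO carried the same transgene together with BMI1-flox, so deletion of Bmi1, a Polycomb repressive complex 1 subunit, was directed to Foxp3-expressing cells. Both groups therefore carried the Cre transgene. The comparison asks how the genotype label relates to expression, with 2 arrays for WT (replicates 1 and 3) and 2 for KO (replicates 1 and 2). The sample titles and treatment notes describe untreated cells, while the design text of the series speaks of CD3 and CD28 stimulation for 24 h, so the state of the cells is not settled. The labels do not say whether each array came from 1 animal or a pool, so a p-value here reflects the scatter of these samples alone, which may be technical.

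TGF-beta is secreted in a latent form, folded inside its own propeptide. On regulatory T cells the protein encoded by Lrrc32, called GARP, holds this latent complex at the surface, and an integrin containing the chain made by Itgb8 can free the active cytokine. The active cytokine joins the receptors of Tgfbr2 and Tgfbr1, which phosphorylate SMAD2 and SMAD3. These enter the nucleus with SMAD4, where SKI and its relative SKIL (SnoN) hold the response in check and SMAD7 shuts the receptor down. TGF-beta signalling is known to support Foxp3 expression and the tissue programme of regulatory T cells.

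The libraries and labels were checked first. Array medians over all clusters lay between 4.65 and 4.72 on the log2 scale, and the arrays correlated at 0.991 to 0.994 across clusters, which are not independent replicates. The targeted gene Bmi1 read 8.98 in both arrays labelled WT and 9.58 and 9.91 in the arrays labelled KO, so the arrays labelled KO were the higher ones (difference 0.77, SE 0.16, limma adjusted p 0.289). Neither the exons its cluster covers nor those floxed are stated, so this value cannot show whether the deletion occurred, and each direction below rests on the labels. Of the regulatory T cell list 10 of 12 markers were measured, all above the median gene, with a mean per array of 13.33 to 13.49. Foxp3 itself has no value of its own, since its cluster also carries other genes. The mean over 6 T cell markers was 14.69 to 14.94. Of the 6, 5 were higher and 1 lower in mean level. In those 5 both arrays labelled KO lay above both labelled WT, where 21.1% of all genes and 29.1% of those at or above the median gene did so. Cd3e had the largest difference (0.565, SE 0.06, limma adjusted p 0.134). The 7 measured B cell markers averaged 4.78 to 4.89, and the 12 myeloid and dendritic cell markers 4.49 to 4.62, near the median gene (5.04 over the 4 arrays). Single markers were brighter, with Cd79b at 7.42 to 7.91, Siglech at 5.71 to 5.82 and Cd68 at 5.02 to 5.79. Cd68 had a difference of 0.48 (SE 0.17, limma adjusted p 0.445), while 10 of the 12 myeloid and dendritic cell markers were lower in mean level.

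The difference in the surface anchor was the largest among the members. Lrrc32 read 12.05 and 12.28 in WT replicates 1 and 3, and 11.18 and 10.48 in KO replicates 1 and 2. Both arrays labelled KO lay below both arrays labelled WT, with a gap of 0.87 between the groups, and KO replicate 2 was the lower of the pair. The means were 12.17 ± 0.16 (SD, n = 2) and 10.83 ± 0.49 (SD, n = 2) on the log2 scale. The difference was -1.34 (SE 0.25), 0.396 times the level in the arrays labelled WT, with a 95% interval of 0.254 to 0.620 times. It had an unadjusted limma p of 0.00293 and did not pass after Benjamini-Hochberg adjustment over all genes (limma adjusted p 0.286). Over all genes 0.278% were lower by at least 2-fold, 3.81% were lower at an unadjusted limma p under 0.05, and Lrrc32 had the 42nd largest decrease of 29860. Leaving out each array in turn gave -0.99 to -1.69, and 0 of 11 alternative settings brought its limma adjusted p under 0.05.

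Tgfb1, the cytokine that GARP holds, showed no difference of that size. It read 12.06 and 12.52 in the arrays labelled WT, and 12.25 and 12.27 in the arrays labelled KO. Both arrays labelled KO lay inside the range of the WT pair. The difference was -0.03 (SE 0.18), with a 95% interval of 0.719 to 1.33 times (limma adjusted p 0.971), and it became 0.20 without WT replicate 3. Within each array, the log2 ratio of Lrrc32 to Tgfb1 was -0.95 and -1.67 in KO replicates 1 and 2 relative to the WT mean, against 0.12 and -0.12 in WT replicates 1 and 3. This ratio is a description with no test.

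The markers of the sorted cell type were not lower as a group. The mean of the 10 regulatory T cell markers was 13.33 and 13.37 in the arrays labelled WT and 13.49 and 13.47 in those labelled KO, a difference of 0.13. Of the 10, 6 were higher and 4 lower, with a median difference of 0.03, so the mean was pulled up by the largest, Gpr83 (1.15, SE 0.28). The 4 lower ones were Ikzf4 (-0.19, SE 0.12), Ikzf2 (-0.16, SE 0.12), Capg (-0.14, SE 0.25) and Tnfrsf18 (GITR, -0.08, SE 0.12). Among the other higher ones Il2rb, an interleukin-2 receptor chain, had 0.33 (SE 0.19) and Tnfrsf4 (OX40) 0.10 (SE 0.07). Izumo1r, the folate receptor family member FR4, had 0.25 (SE 0.08). Relative to the marker mean, and set to 0 at the WT mean, Lrrc32 stood at -0.09 and 0.09 in the arrays labelled WT and at -1.13 and -1.81 in those labelled KO. In such bulk samples fewer cells that express a gene and less RNA per cell cannot be told apart. Platelets are another known source of Lrrc32 and Tgfb1. The 7 measured platelet markers averaged 4.41 to 4.48 in the arrays labelled WT and 4.41 to 4.44 in those labelled KO, with the brightest, Gp9, at 5.82 to 6.11. The defining markers Pf4 and Ppbp read 3.70 to 4.15, below the median gene in every array.

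**Figure D1:**
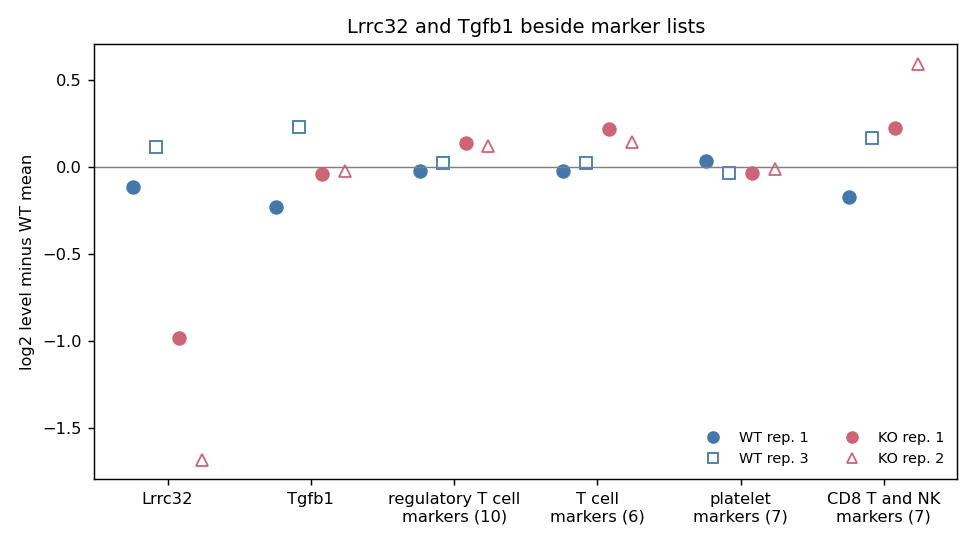
Levels of Lrrc32, Tgfb1 and the means of 4 marker lists in each array, as the log2 level minus the mean of the arrays labelled WT; each symbol is 1 array and numbers in brackets count the markers. Lrrc32 is lower in both arrays labelled KO, while the regulatory T cell markers differ by 0.13 and the CD8 T and NK markers are highest in KO replicate 2.

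Of 7 CD8 T and NK cell markers, 5 were higher and 2 lower in mean level, with a median difference of 0.13, and 0 passed after adjustment. The mean of the 7 CD8 T and NK cell markers was 6.29 and 6.63 in the arrays labelled WT and 6.69 and 7.05 in those labelled KO. Nkg7, a cytotoxic granule gene, read 10.48 and 11.09 against 11.58 and 12.31 (difference 1.16, SE 0.32, limma adjusted p 0.366). The transcription factor gene Eomes read 6.80 and 6.91 against 7.37 and 8.49 (1.08, SE 0.37, limma adjusted p 0.429). KO replicate 2 was the highest in both and had the lowest Lrrc32. In the WT pair, by contrast, replicate 3 was higher than replicate 1 in Nkg7, Eomes and Lrrc32 (12.28 against 12.05). Klrb1c, an NK cell receptor gene, had -0.13 (SE 0.16), Cd8a -0.10 (SE 0.08) and Klrd1 0.02 (SE 0.09). Cd8a (4.07 to 4.23) and Ncr1 (4.02 to 4.23) lay below the median gene in every array. Cd8b1, another marker of the list, read 9.74 and 10.78 against 10.71 and 11.26 (0.725, SE 0.38, limma adjusted p 0.604). Its groups overlapped, and KO replicate 2 was again the highest array. Of 8 plasma cell markers, 7 had a higher mean in the KO arrays, where 51.1% of all genes did, and 0 passed after adjustment. Jchain, the antibody joining chain, had the largest difference, at 7.49 to 7.66 against 6.47 to 6.62 (1.03, SE 0.13, limma adjusted p 0.195). In 3 of the 8 both arrays labelled KO lay above both labelled WT, where 21.1% of all genes did so. Sdc1 read 4.43 to 4.52, and 4 of the 8 lay below the median gene. The part of these cell types in the member differences was not tested.

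Itgb8, the integrin chain that frees the cytokine, was also lower in both arrays labelled KO. It read 8.19 and 8.81 in the arrays labelled WT and 8.01 in each array labelled KO. The gap between the groups was 0.18, smaller than the 0.62 between the 2 WT arrays. The difference was -0.49 (SE 0.23), with a 95% interval of 0.477 to 1.06 times and a limma adjusted p of 0.548. It was -0.18 without WT replicate 3 and -0.80 without WT replicate 1, so its size rests on WT replicate 3. The integrin's partner chain gene Itgav read 8.01 to 8.10 in the 4 arrays.

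The receptors gave small differences in the same direction. Tgfbr2, the receptor that binds the cytokine first, read 10.22 and 10.40 in the arrays labelled WT and 10.14 and 10.08 in those labelled KO (difference -0.20, SE 0.13, limma adjusted p 0.694). Tgfbr1, the kinase that phosphorylates SMADs, read 9.44 and 9.60 against 9.37 and 9.39 (-0.14, SE 0.13, limma adjusted p 0.800). In neither gene did the groups overlap, as for 17.5% of all genes with the arrays labelled KO lower, and the gaps were only 0.08 and 0.05. Without WT replicate 3 the differences were -0.11 for Tgfbr2 and -0.06 for Tgfbr1. Without WT replicate 1 they were -0.29 and -0.22, so their size depends on WT replicate 3. The 95% intervals were 0.689 to 1.10 times for Tgfbr2 and 0.719 to 1.14 times for Tgfbr1. They do not reach 2-fold in either direction, but reflect the scatter of these samples alone.

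The promoters of 3 of the 4 members that were lower in both arrays labelled KO are shown because Polycomb complexes act largely at CpG-rich promoters. Lrrc32, the remaining one, had no promoter entry, and any part of Polycomb in these differences was not tested. RefSeq promoter entries (GRCm38.p6) matched 6 of the 10 members: Tgfb1, Itgb8, Tgfbr1, Tgfbr2, Smad3 and Ski. Each window holds the 250 bases before the start, 5′ to 3′ on the gene's strand, with CG dinucleotides in capitals. The build of the array itself is not stated. Itgb8 lies at chr12:119238277-119238526 on the minus strand, the upstream start of Tgfbr1 at chr4:47352972-47353221 on the plus strand, and Tgfbr2 at chr9:116175364-116175613 on the minus strand.
Itgb8: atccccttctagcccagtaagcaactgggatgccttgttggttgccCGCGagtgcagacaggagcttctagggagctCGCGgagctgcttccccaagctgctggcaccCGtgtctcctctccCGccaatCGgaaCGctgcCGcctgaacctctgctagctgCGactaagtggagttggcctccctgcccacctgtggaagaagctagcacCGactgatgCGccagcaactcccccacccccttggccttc
Tgfbr1: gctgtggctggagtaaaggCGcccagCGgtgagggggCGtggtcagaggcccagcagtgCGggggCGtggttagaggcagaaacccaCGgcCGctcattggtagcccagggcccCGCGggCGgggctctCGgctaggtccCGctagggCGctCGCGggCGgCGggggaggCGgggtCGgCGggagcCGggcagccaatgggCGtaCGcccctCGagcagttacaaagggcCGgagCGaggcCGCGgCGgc
Tgfbr2: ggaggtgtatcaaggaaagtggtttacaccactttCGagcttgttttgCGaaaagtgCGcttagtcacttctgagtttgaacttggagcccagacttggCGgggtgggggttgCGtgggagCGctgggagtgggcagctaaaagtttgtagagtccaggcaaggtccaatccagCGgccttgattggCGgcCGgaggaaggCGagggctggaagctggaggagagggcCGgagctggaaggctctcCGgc
The 3 windows printed hold more CG than the median of 6 over 32851 promoter windows of this length. Itgb8 and Tgfbr2 hold 12 each, more than 66.5% of windows, and Tgfbr1 holds 29, more than 93.2%. The second Tgfbr1 start in the table, at chr4:47385966-47386215, holds 3, more than 29.0% of windows, and CAGAC once. The windows of Tgfb1, Smad3 and Ski, genes whose groups overlapped, hold 21, 22 and 53. The SMAD-binding letters CAGAC, read on both strands, occur once in Itgb8 and in Tgfbr2 and 0 times in the printed Tgfbr1 window, and 42.2% of all windows hold them. The palindrome GTCTAGAC is in 0 of the 3 windows and in 0.17% of all windows. A match describes letters, not a bound site.

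The 3 SMAD genes had mean differences above 0, as did 8662 of the 14938 genes at or above the median gene. Smad2, which carries the receptor signal, read 9.49 and 9.70 in the arrays labelled WT and 9.74 and 9.71 in those labelled KO. Its groups were separated by 0.01, and the difference was 0.13 (SE 0.14, limma adjusted p 0.826). Smad3, its close relative with direct DNA binding, read 7.73 and 8.26 against 8.12 and 8.23, so the arrays labelled KO lay inside the WT range. Its difference of 0.18 (SE 0.21, limma adjusted p 0.841) became -0.09 without WT replicate 1. Smad7, the inhibitory SMAD that TGF-beta itself induces, read 8.51 and 8.87 against 9.26 and 8.76. KO replicate 1 was the highest array, KO replicate 2 lay within the WT range, and the difference was 0.32 (SE 0.23, limma adjusted p 0.718). The upper bounds of the 95% intervals were 1.40 times for Smad2, 1.63 for Smad3 and 1.86 for Smad7.

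The corepressors overlapped between groups. Ski, which blocks SMAD-driven transcription, read 11.12 and 11.37 in the arrays labelled WT and 11.22 and 11.04 in those labelled KO (difference -0.12, SE 0.15, limma adjusted p 0.864), and became 0.01 without WT replicate 3. Skil, a corepressor that is itself a TGF-beta target, read 10.18 and 10.36 against 10.58 and 10.28 (0.16, SE 0.16, limma adjusted p 0.815). The 95% intervals ran from 0.712 to 1.20 times for Ski and from 0.842 to 1.48 times for Skil.

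**Figure D2:**
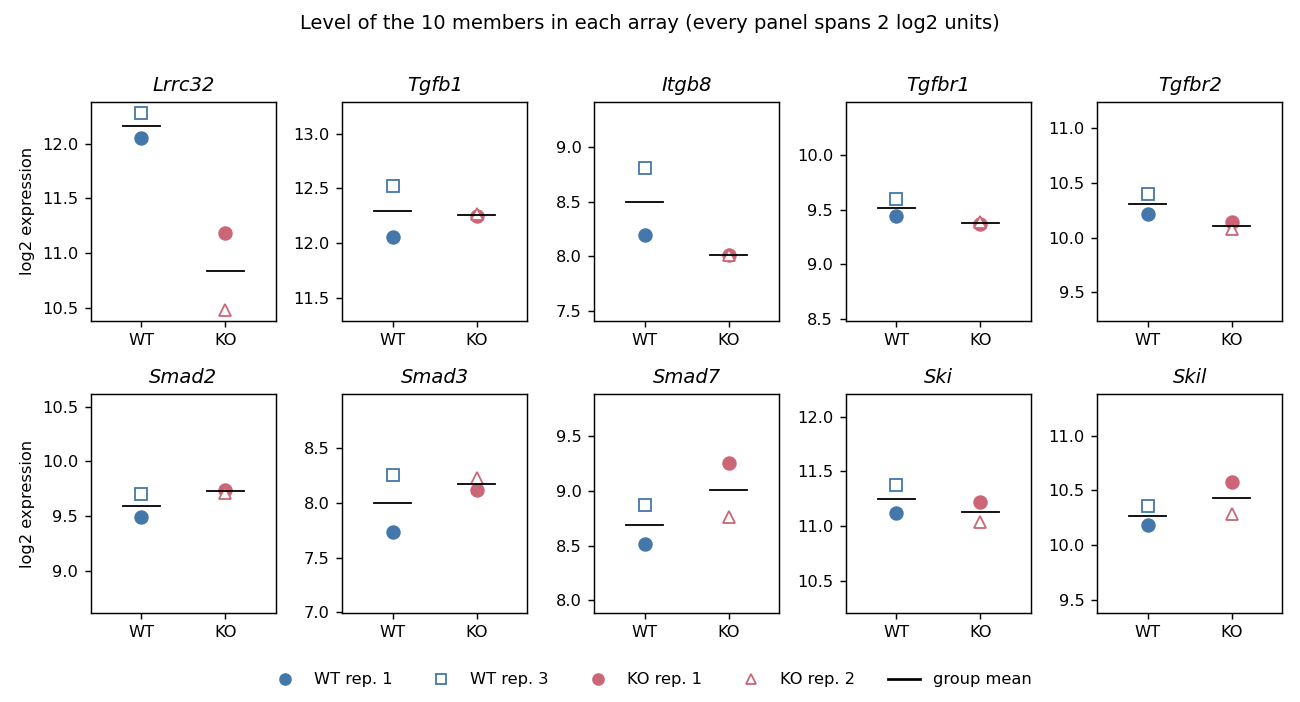
Log2 expression of each member in the 4 arrays, 1 panel per gene, with symbols for single arrays and a line for the group mean; every panel spans the same range so that differences compare between panels. Lrrc32 has a gap of 0.87 between the groups, and the next largest gap is 0.18 (Itgb8).

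Across the members, 0 of 10 passed a limma adjusted p under 0.05 in either direction, where 0.0067% of all genes were higher and 0% lower. At an unadjusted limma p under 0.05, 1 of 10 was lower (Lrrc32) and 0 were higher, against 3.81% and 6.45% of all genes, or 4.18% and 10.4% of the genes at or above the median gene. Lrrc32 was the 1 member that differed by at least 2-fold, where 0.278% of all genes were that much lower and 0.388% that much higher. The groups did not overlap for 4 members with the arrays labelled KO lower (Lrrc32, Itgb8, Tgfbr1 and Tgfbr2), where 17.5% of all genes and 16.2% of the brighter ones did so. They did not overlap for 1 with them higher (Smad2), where 21.1% and 29.1% did. In mean level 6 members were lower and 4 higher, against 47.9% and 51.1% of all genes. The lower ones were the anchor, cytokine, integrin, receptor genes and Ski, and the higher ones were the SMAD genes and Skil, with a median difference of -0.07 over the 10 members against 0.01 over all genes. All 10 lay above the median gene in every array, so none was read near the lower end of the range.

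The spread within the WT pair was shared by the members. WT replicate 3 read higher than WT replicate 1 for 10 of 10 members, by 0.16 (Tgfbr1) to 0.62 (Itgb8), where 55.0% of the genes at or above the median gene did so. KO replicate 2 read higher than KO replicate 1 for 3 of 10, where 44.6% of those genes did. The difference between groups exceeded the difference within both pairs for 2 members, Lrrc32 by 0.64 and Tgfbr2 by 0.02, and for 27.4% of all genes. For the other 8 members the 2 WT arrays or the 2 KO arrays differed from each other by at least as much as the groups did.

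**Figure D3:**
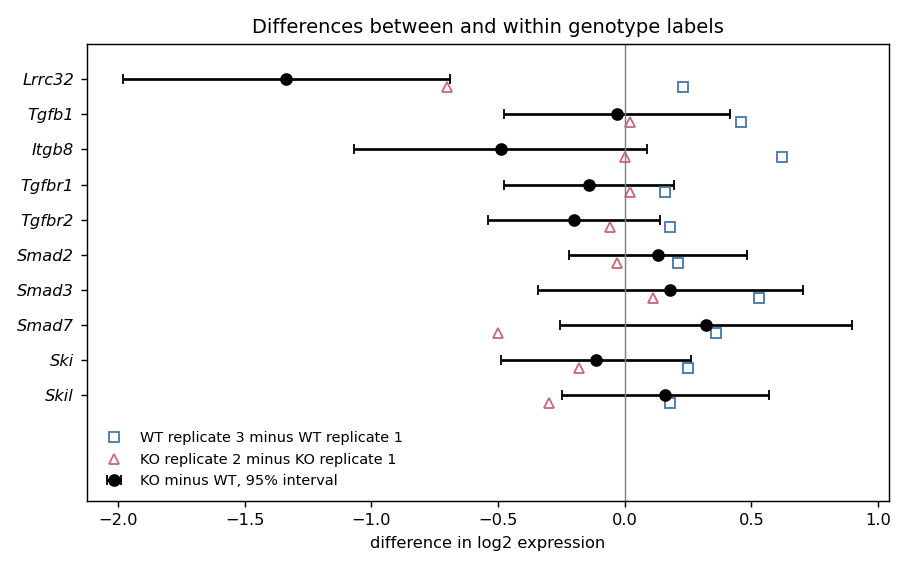
Black points give the difference KO minus WT for each member on the log2 scale with its 95% interval from limma; open squares give WT replicate 3 minus WT replicate 1 and open triangles KO replicate 2 minus KO replicate 1. Only the interval of Lrrc32 lies away from 0, and all 10 squares lie to the right of 0.

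**Figure D4:**
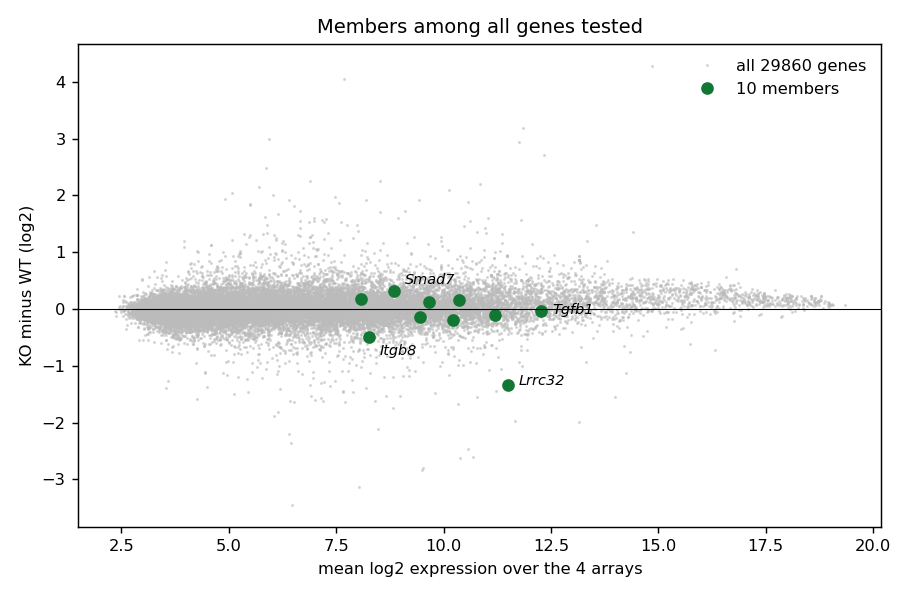
Difference KO minus WT against mean level over the 4 arrays, both on the log2 scale, for all genes (grey) and the 10 members (green). Lrrc32 lies at -1.34, and the other 9 members lie between -0.49 and 0.32.

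The chromosomal neighbours of Lrrc32 showed no difference of its size. Of the 10 nearest measured protein-coding genes of Lrrc32, 5 on each side, 6 had a higher and 4 a lower mean in the KO arrays, with a range of -0.24 to 0.44 and 0 at 2-fold. Its immediate neighbours were Gucy2d, a guanylate cyclase gene (0.01, SE 0.08), and Emsy, a chromatin regulator (-0.18, SE 0.11). Around Itgb8, 5 of 7 neighbours were lower, with a lowest value of -0.22. The genes whose 4 array values, centred on their mean, came closest to those of Lrrc32 were the microRNA gene Mir505 (difference -1.47), the noncoding RNA Phxr4 (-1.17) and the thiol dioxygenase gene Ado (-1.10). Their root mean square differences from Lrrc32 were 0.12, 0.13 and 0.17 over 4 arrays, out of 29859 genes compared.

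The rest of the pathway was followed in 6 lists, ordered by role, of which 87 of 92 distinct genes were measured. Of these, 0 passed a limma adjusted p under 0.05, 43 were higher and 43 lower. At an unadjusted limma p under 0.05 there were 8 higher and 4 lower, close to the shares over all genes (6.45% and 3.81%) and over the genes at or above the median gene (10.4% and 4.18%).

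Among 15 measured ligands of the family, 7 were higher and 7 lower with a median of 0.00. Bmp7, a bone morphogenetic protein (BMP), stood out with 8.53 and 9.26 in the arrays labelled WT and 7.70 and 7.31 in those labelled KO. The groups did not overlap, and the difference was -1.39 (SE 0.28, limma adjusted p 0.288), or 0.382 times. Mstn (myostatin) had -0.47 (SE 0.24), but -0.09 without WT replicate 3 and -0.84 without WT replicate 1. Bmp6 had -0.15 (SE 0.09) and the inhibin gene Inha 0.14 (SE 0.11). Of the 15 ligands, 12 lay below the median gene.

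Genes of latency, anchoring and activation gave 7 higher and 9 lower of 16, with a median of -0.02. Nrros, which anchors latent TGF-beta on myeloid cells and is related to Lrrc32, read 7.39 and 7.54 against 7.29 and 7.15 (-0.25, SE 0.13, limma adjusted p 0.609). Itgb1, a widely used integrin chain, had 0.52 (SE 0.26) with groups that overlapped, and leaving out 1 array gave 0.21 (WT replicate 3), 0.30 (KO replicate 1), 0.74 (KO replicate 2) or 0.83 (WT replicate 1). Itgb5 had -0.14 (SE 0.08) and the urokinase gene Plau -0.08 (SE 0.09).

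Among receptors and co-receptors 8 of 12 had a higher and 4 a lower mean in the KO arrays, with a median of 0.26 against 0.01 over all genes. At an unadjusted limma p under 0.05 there were 6 higher and 1 lower, where 6.45% and 3.81% of all genes were, and 0 passed after adjustment. Among the 8 of these genes at or above the median gene, the median was 0.54. Bmpr1a, a receptor for BMPs, read 5.46 and 4.86 in the arrays labelled WT and 6.82 and 6.44 in those labelled KO. Both arrays labelled KO were higher, with a difference of 1.47 (SE 0.24), 2.77-fold, and a limma adjusted p of 0.267. It lay near the median gene in the arrays labelled WT, where a difference can be understated. Bmpr2, its partner, read 11.72 and 11.80 against 12.37 and 12.25 (0.55, SE 0.11, limma adjusted p 0.288). Tdgf1, a co-receptor for nodal, had 0.62 (SE 0.11, limma adjusted p 0.286), although the mouse genome holds pseudogenes of it whose RNA the array may not separate. In the other direction, the activin receptor gene Acvr1b had -0.55 (SE 0.16, limma adjusted p 0.372).

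**Figure D5:**
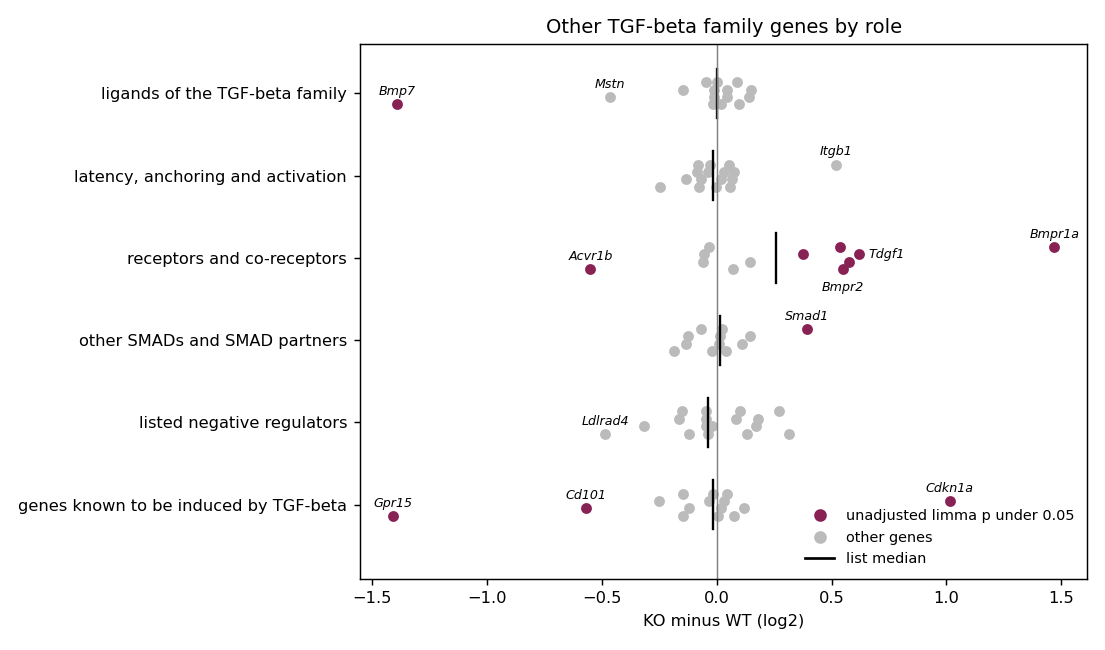
Difference KO minus WT on the log2 scale for each measured gene of 6 lists of the TGF-beta family, 1 point per gene and a line at each list's median; dark points have an unadjusted limma p under 0.05. The receptors and co-receptors have a median of 0.26, and the medians of the other 5 lists lie between -0.04 and 0.01.

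Of 12 other SMAD genes and SMAD partners, 7 were higher and 5 lower, with a median of 0.01. Smad1, which carries BMP signals, read 6.50 and 6.62 against 6.95 and 6.96 (0.40, SE 0.12, limma adjusted p 0.382). Smad5, with the same role, had -0.19 (SE 0.12), the coactivator gene Crebbp -0.14 (SE 0.09) and Runx3 0.15 (SE 0.12). Smad4, the shared partner of the signalling SMADs, was nearly level at 11.53 to 11.74 (-0.07, SE 0.13).

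Of 17 genes listed as negative regulators, although deubiquitinases such as Usp9x are also known to favour signalling, 7 were higher and 10 lower, with a median of -0.04. Ldlrad4, which retains SMADs away from the receptor, read 9.76 and 10.25 against 9.49 and 9.55 (-0.49, SE 0.20, limma adjusted p 0.497). Tgif1, a SMAD corepressor, had 0.32 (SE 0.13), the deubiquitinase gene Usp9x -0.32 (SE 0.13) and Pmepa1 0.27 (SE 0.14). Pmepa1 and Ldlrad4 are related proteins with the same role, and their differences had opposite signs.

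Genes known to respond to TGF-beta gave no common direction, with 7 higher and 8 lower of 15 and a median of -0.02. Gpr15, a gut-homing receptor that TGF-beta induces in T cells, read 6.88 and 6.93 in the arrays labelled WT and 5.63 and 5.36 in those labelled KO. Its difference was -1.41 (SE 0.13, limma adjusted p 0.112), or 0.376 times. Cd101, a surface molecule of regulatory T cells, read 7.03 and 7.00 against 6.58 and 6.31 (-0.57, SE 0.14, limma adjusted p 0.339). Cdkn1a, a cell cycle inhibitor with p53 and TGF-beta inputs, read 5.74 and 5.75 against 6.69 and 6.83. It went the other way, with 1.015 (SE 0.11, limma adjusted p 0.138), or 2.02 times. Ccr8, a chemokine receptor of regulatory T cells, had -0.25 (SE 0.14). Itgae, the integrin chain CD103 and a classical TGF-beta target in T cells, read 9.26 and 9.33 against 9.11 and 9.52, a difference of 0.02 with a 95% interval of -0.43 to 0.47.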

How the data were processed

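The values are deposited as log2 expression for 65528 transcript clusters on 4 arrays. RMA, a multi-array summary, and Transcriptome Analysis Console are named in the submitters' processing notes, without version or order. The log base was taken from RMA, and the fold values rest on it. The range, 1.82 to 19.38, does not settle the base by itself. How background was handled and which genome build was used is not stated there, and the labels name no batch. Clusters were named through the platform annotation: 30390 had 1 symbol, 2127 several (not used) and 33011 none. Symbols were updated through RefSeq (GRCm38.p6), which named 22634 clusters by identifier. For 420 genes with several clusters the brightest was kept, leaving 29860 genes.

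Groups came from the sample titles. KO minus WT was fitted on all genes with limma 3.58.1 in R 4.3.3 (lmFit, eBayes with trend, two-sided, Benjamini-Hochberg adjustment, threshold 0.05, no filter on dim genes). The median SE of a difference was 0.12 with 3.20 prior degrees of freedom, and the small number of arrays limits the precision. The fit was tested on simulated data. The alternatives were scaling, a filter on dim genes, cluster averaging, other eBayes settings, protein-coding genes alone and leaving out each array. Members and lists were chosen with earlier results of these data known. Named are all members, Bmi1, the 4 genes of smallest p in each pathway list, at most 4 bright genes of a marker list and the 3 genes most like Lrrc32. Itgav, Smad4, Itgae, Gpr83, Ikzf2, Ikzf4, Capg, Cd8a, Klrd1, Ncr1, Sdc1, Pf4 and the neighbours Gucy2d and Emsy were added after their values were seen. The erythroid list had 2 measured members, with means of 4.51 to 4.61 per array.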

Additional observations from a re-analysis of the deposited data

How the results depend on the processing

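The direction of the member differences was kept in 107 of 110 recomputed values, and 0 members passed a limma adjusted p under 0.05 in any of them. The filter on dim genes, cluster averaging, other eBayes settings and protein-coding genes alone leave each member's difference unchanged by construction. Their values could not change direction, so only scaling and leaving out an array bear on it. The exceptions came from leaving out 1 array. Tgfb1 ranged from -0.26 to 0.20 (above 0 without WT replicate 3). Smad3 ranged from -0.085 to 0.445 (below 0 without WT replicate 1) and Ski from -0.24 to 0.01 (above 0 without WT replicate 3). The limma adjusted p of Lrrc32 ranged from 0.163 among genes at or above the median gene to 0.796 without KO replicate 2. The count of all genes called was 2 higher and 0 lower. It was 1 higher after median-centring, 0 after quantile normalization, 0 without an intensity trend, 0 with robust settings, 1 among protein-coding genes, and 10 higher with 4 lower among genes at or above the median gene. Leaving out any 1 array gave from 0 to 0 higher. The cause was not tested, beyond fewer genes or arrays in these fits. Scaling moved the median difference of all genes from 0.01 to at most 0.03. Of 66 list medians, 6 moved by more than the spread between arrays: among genes at or above the median gene, receptors gave 0.54 (8 genes), ligands 0.09, latency genes 0.06 and SMAD partners -0.02, and the last gave -0.03 without KO replicate 1 and -0.02 without KO replicate 2. For 25 other named genes, 0 of 270 values changed direction, again counting the settings that leave a difference unchanged. No paired analysis was possible because the groups share only 1 replicate number. The table holds no detection call or background signal, so dim genes have no lower limit.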
